A study of Mus musculus with 6 samples.

Results

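Carbonic anhydrases interconvert carbon dioxide and bicarbonate, and here 7 genes of the family (Car2, Car3, Car4, Car5b, Car8, Car13 and Car14) were followed in adipose tissue of KM mice by RNA sequencing. The genes were chosen by symbol, and all 7 were found among the 19928 genes of the authors' table. The tissue came from mice given radix Angelica sinensis (RAS), a plant root used as a medicine, at a dose of 10.00 g per kg body weight (3 samples), and from control mice (3 samples). The series title speaks of mice made obese by a high-fat diet, while the diet label of the second group reads control. The labels used here do not state the fat depot, sex or age, nor whether a sample is 1 animal or a pool. The p-values therefore cover only the spread among these 6 samples, which may be technical. The question behind the comparison is which genes of fat tissue differ in mice given the root.

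Members of the family differ in where they work. Car2, Car3 and Car13 are cytosolic enzymes. Car3 is slow for the family and is known as a very abundant protein of fat cells, also made in slow muscle and liver, and its level is known to be low in the fat of genetically obese rodents. Car5b sits in mitochondria, where bicarbonate feeds carboxylases. Car4 is held on the outer face of the cell membrane by a lipid anchor and is a known enzyme of capillary walls, and Car14 spans the membrane with its active site outside. Car8 is a related protein without carbonic anhydrase activity.

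The 2 members whose FPKM ranges stood apart between the groups, Car4 and Car5b, are shown with the sequence around their transcript start, 250 bases before to 50 after it, from RefSeq (GRCm38.p6), since the values below turn on them. Car4 is at chr11:84957504-84957803 (plus strand) and Car5b at chrX:164027961-164028260 (minus strand), each written 5′ to 3′ with TATAAA or GGGCGG in capitals.
Car4: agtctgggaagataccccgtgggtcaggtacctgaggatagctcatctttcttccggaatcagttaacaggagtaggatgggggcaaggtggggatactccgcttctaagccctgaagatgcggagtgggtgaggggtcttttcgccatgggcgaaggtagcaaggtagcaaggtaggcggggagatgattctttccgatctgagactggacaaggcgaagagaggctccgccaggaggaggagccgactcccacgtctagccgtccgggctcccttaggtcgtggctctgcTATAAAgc
Car5b: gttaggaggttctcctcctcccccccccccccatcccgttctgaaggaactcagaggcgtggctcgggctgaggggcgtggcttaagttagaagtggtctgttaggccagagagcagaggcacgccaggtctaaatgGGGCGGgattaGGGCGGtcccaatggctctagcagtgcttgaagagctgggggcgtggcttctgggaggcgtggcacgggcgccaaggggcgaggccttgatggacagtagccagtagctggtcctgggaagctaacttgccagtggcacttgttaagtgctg

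Both strands were searched for the TATA box (TATAAA), the GC box (GGGCGG), the CCAAT box (spelled as its name) and the E-box of clock factors (CACGTG). The TATA box was found in the Car4 window at base 293 of 300, and so after the annotated start, with no other match there. The Car5b window held the GC box at bases 138 and 149 and the CCAAT box at base 157, with no overlap between matches. Of 32851 promoter windows of the same length, 13.6% held the TATA box, 35.7% the GC box, 37.4% the CCAAT box and 7.15% the E-box. The Car14 window (RefSeq) held none of the 4. These matches describe the letters only.

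The libraries held 14.4 to 15.7 M assigned reads. Values are FPKM as the authors deposited them (fragments normalised to transcript length and sequencing depth), so levels of different genes can be compared. Markers of fat cells were present in every library, with a summed level over 12 genes of 47670 to 66672 FPKM with RAS and 36818 to 43538 FPKM in control, and Fabp4, the fatty acid binding protein of fat cells, made up most of that sum. The other 11 markers summed to 15531, 17507 and 21086 FPKM in RAS 1 to 3, against 17090, 15997 and 15751 FPKM in control 1 to 3, so that the groups overlapped without Fabp4. In a principal component analysis of the log2 values, RAS 3 (-34.5) and control 1 (24.4) lay at the ends of the first component, with the others between -1.20 and 8.36. On the second component control 1 (16.1) lay beside the RAS libraries (4.62 to 12.8), away from control 2 (-16.3) and control 3 (-26.6). In bulk tissue, fewer cells of a type and less RNA per cell cannot be told apart.

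On FPKM as deposited, the RAS libraries lay above all control libraries for Car4 and Car5b, while the groups overlapped for Car3, Car13 and Car2. Under quantile normalization the groups stayed apart for Car4 and overlapped for Car5b. With median-ratio size factors, and on the authors' scaled counts, the groups stayed apart for both genes. Neither difference passed the test across all genes. The test was limma's moderated test on log2(FPKM + 1), RAS minus control, two-sided, over the 12606 genes whose mean FPKM reached 1. Its p-values were adjusted by the Benjamini-Hochberg method and held against 0.05. Of the 7 members 5 were tested and 0 were called, and over all genes limma also called 0 (0%), while 1294 had an unadjusted p under 0.05 (10.3%). Car4 and Car5b were the 2 members at an unadjusted p under 0.05, both higher with RAS, beside 3.86% of all tested genes in that direction. They were also the 2 whose ranges stood apart, beside 5.42% of all tested genes apart with RAS higher and 17.9% apart either way. On FPKM as deposited, 5416 of all 12606 tested genes had higher and 7190 lower means with RAS. This lean depended on the scaling. At an unadjusted limma p under 0.05, 486 genes were higher and 808 lower with RAS on FPKM as deposited. With median-ratio size factors these numbers were 664 and 640, and under quantile normalization 652 and 653. The shares by direction given here and below hold for FPKM as deposited.

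**Figure D1:**
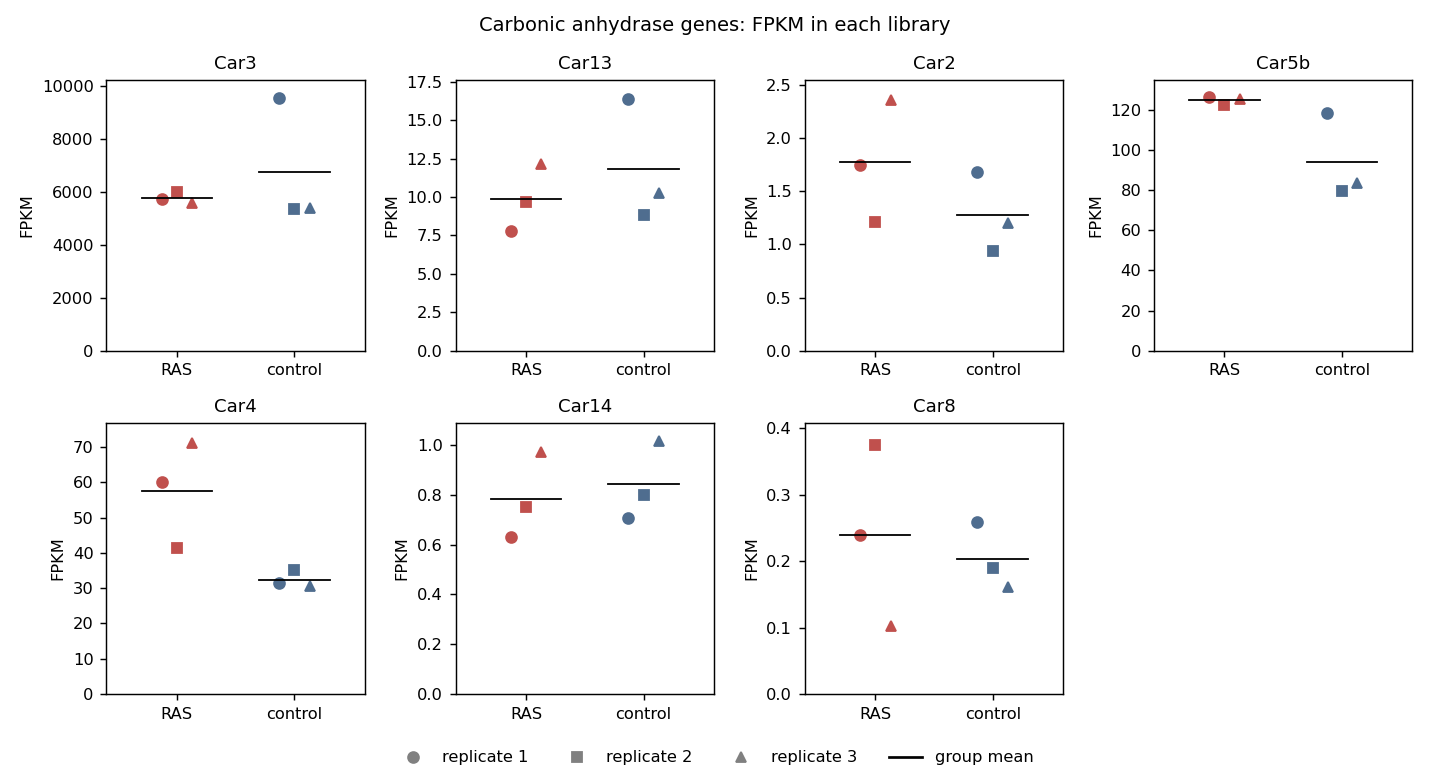
FPKM of each of the 7 carbonic anhydrase genes (vertical axes, linear and starting at 0) in 3 RAS and 3 control libraries, with points for libraries and lines for group means. Car5b and Car4 show no overlap between the groups, and control 1 stands above every other library for Car3 and Car13.

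Among the cytosolic members, Car3 dominated the family. Car3 (NCBI gene 12350, plus strand; chromosome 3, 14863538 to 14872529) was at 5708, 5986 and 5561 FPKM in RAS 1 to 3, against 9524, 5327 and 5399 FPKM in control 1 to 3. Control 1 was far above the other libraries, and all 3 RAS values lay above those of control 2 and control 3. The means were 5752 ± 216 FPKM with RAS and 6750 ± 2402 FPKM in control (SD, n = 3 each). The log2 difference was -0.18 ± 0.31 (SE; 95% interval -0.90 to 0.55; limma adjusted p = 0.867). Without control 1 it was 0.10, so the sign rested on that library.

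Car3 was the 4th or 5th most abundant of the 19928 genes in each library. It held 1.02 to 1.33% of all FPKM with RAS and 1.18 to 1.98% in control. Of the summed FPKM of the 16 carbonic anhydrase genes in the table, Car3 made up 96.5, 97.0 and 96.1% in RAS 1 to 3, against 98.2, 97.5 and 97.5% in control 1 to 3. Its share was thus lower in every RAS library, a share in which the other members, Car5b and Car4 above all, take the rest.

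The table lists a second gene, LOC100862241, on the same locus as Car3, without a description. LOC100862241 was at 9366, 9352 and 10904 FPKM in RAS 1 to 3, against 14902, 8778 and 9130 FPKM in control 1 to 3, and ranked 2nd or 3rd of all genes. Like Car3 it was highest in control 1, and the groups overlapped (log2 difference -0.11 ± 0.32, SE; limma adjusted p = 0.928). How the authors' counting shared reads between both genes is not given in the sources used here, so the level of Car3 alone is uncertain. Car3 received 53.3, 54.2 and 48.0% of the reads given to the locus in RAS 1 to 3, and 55.5, 53.6 and 51.8% in control 1 to 3.

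Added up, the genes on this locus took 246771, 254416 and 273167 reads in RAS 1 to 3, against 404120, 268963 and 251936 in control 1 to 3. That was 1.65 to 1.86% of assigned reads with RAS and 1.70 to 2.57% in control. With both genes added up on the scaled counts, a step added after seeing the data, the log2 difference was -0.08 ± 0.43 (SE; limma adjusted p = 0.968). Control 1 again stood alone.

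**Figure D2:**
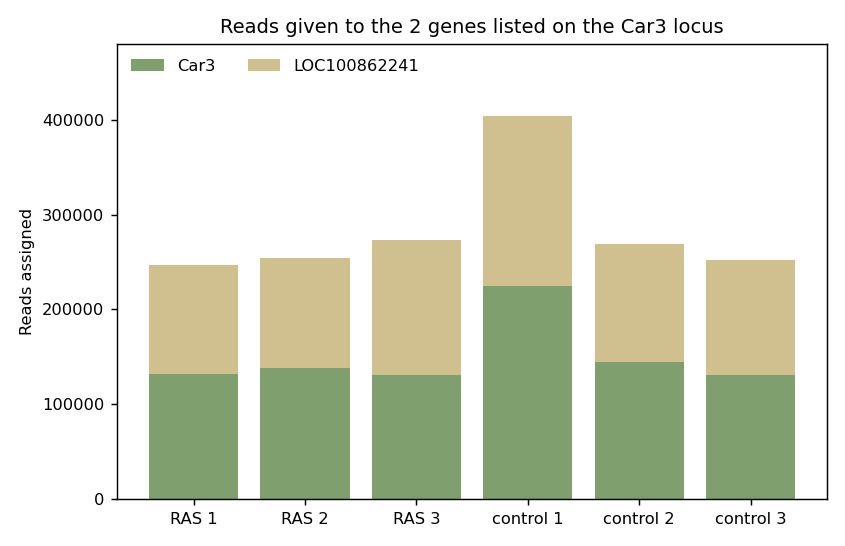
Reads (vertical axis, linear from 0) assigned to Car3 and to LOC100862241, stacked, in each of the 3 RAS and 3 control libraries. Control 1 holds 404120 reads over both genes, and the other libraries between 246771 and 273167.

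Markers of skeletal muscle, another tissue that makes Car3, had their highest sum in control 1. Their summed level over 13 genes was 24.1, 61.6 and 37.2 FPKM in RAS 1 to 3, against 212, 136 and 70.5 FPKM in control 1 to 3. The actin gene Acta1 made up most of each sum. It was at 21.2, 59.6 and 34.3 FPKM in RAS 1 to 3, against 180, 134 and 66.8 FPKM in control 1 to 3. Acta1 stood apart as lower with RAS (unadjusted p = 0.0065, limma adjusted p = 0.315), and was high in control 2 as well, unlike Car3. Ckm, the creatine kinase of muscle, was at 3.08 FPKM in control 1 and at 0.059 to 0.465 FPKM elsewhere. Not every marker peaked in control 1. Tnnc1, for one, was at 0.334 FPKM there and highest in RAS 1, at 0.736 FPKM. All 4 tested muscle markers had lower means with RAS (median log2 difference -0.90), and 3 of them did without control 1 (median -0.14). Their part in the Car3 values was not tested.

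Measured against fat cell markers of the same library, Car3 lay lower in every RAS library. The value of log2(Car3 FPKM + 1) minus the mean of 12 adipocyte markers was 2.32, 2.41 and 2.26 in RAS 1 to 3, against 3.01, 2.48 and 2.53 in control 1 to 3. The groups did not overlap, and the difference of -0.34 had an exact permutation p of 0.10 (two-sided), the smallest that 3 against 3 samples allow. It was -0.29 without Fabp4 among the markers, a step added after seeing the data, and -0.17 without control 1. Under quantile normalization it was -0.12, with an exact permutation p of 0.40. That step sets each value by its rank within the library. Car3 ranked 4th in every library but RAS 3, where it ranked 5th. Most of its spread between libraries was thus removed, so this setting cannot show whether the difference holds. Of the 12 markers 10 had higher means with RAS, beside 5416 of all 12606 tested genes. For 3 of the 12 the groups stood apart, each higher with RAS, beside 5.42% of all tested genes. Among these was Fabp4, at 37958 ± 7713 FPKM with RAS and 23034 ± 2999 FPKM in control (SD, n = 3 each).

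Car13, a broadly made cytosolic enzyme (NCBI gene 71934, plus strand; chromosome 3, 14641727 to 14663002), was at 7.80, 9.70 and 12.2 FPKM in RAS 1 to 3, against 16.4, 8.86 and 10.2 FPKM in control 1 to 3. Control 1 was highest for this gene too, and the other libraries of both groups were interleaved. The log2 difference was -0.21 ± 0.24 (SE; 95% interval -0.77 to 0.35; limma adjusted p = 0.783), and 0.03 without control 1.

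Car2, the fast cytosolic enzyme of red blood cells, kidney and bone-resorbing cells (NCBI gene 12349, plus strand; chromosome 3, 14886426 to 14900770), was low in this tissue. It was at 1.75, 1.21 and 2.36 FPKM in RAS 1 to 3, against 1.68, 0.940 and 1.20 FPKM in control 1 to 3, on 32 to 70 reads per library. RAS 3 was highest and control 2 lowest, and the groups overlapped. The log2 difference was 0.28 ± 0.20 (SE; 95% interval -0.20 to 0.76; limma adjusted p = 0.671).

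Red blood cells are a known source of Car2, and the levels of their markers overlapped between the groups. Their summed level over 12 genes was 2044, 1144 and 2774 FPKM in RAS 1 to 3, against 1169, 1256 and 672 FPKM in control 1 to 3. All 6 tested markers, Car1 among them, had higher means with RAS, and RAS 3 held the highest sum and the highest Car2. Hba-a1, an alpha globin gene with a near-identical copy, was at 844 ± 406 FPKM with RAS and 437 ± 106 FPKM in control (SD, n = 3 each). Rhag was listed at 0 in RAS 3 and in all 3 control libraries, and Epb4.2 was at most 0.074 FPKM. Whether red blood cells account for part of the Car2 values was not tested.

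Car13, Car1, Car3 and Car2 follow each other on chromosome 3. Within the cluster the mean over the 6 libraries was 10.9 FPKM for Car13, 1.49 for Car1, 6251 for Car3 and 1.52 for Car2. The genes at both ends of that range thus lie beside each other.

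Car5b, the mitochondrial member (NCBI gene 56078, minus strand; chromosome X, 163976822 to 164028010), was at 126, 122 and 126 FPKM in RAS 1 to 3, against 118, 79.6 and 83.8 FPKM in control 1 to 3. The RAS libraries lay close together and above all controls, with control 1 a little below them. Under quantile normalization they were at 124, 129 and 108 in RAS 1 to 3, against 114, 88.0 and 84.5 in control 1 to 3, with control 1 above RAS 3. The means were 125 ± 2.09 FPKM with RAS and 93.9 ± 21.3 FPKM in control (SD, n = 3 each), on 5684 to 8492 reads per library. The log2 difference was 0.43 ± 0.17 (SE; 95% interval 0.02 to 0.84; unadjusted p = 0.043, limma adjusted p = 0.468), with 3 of 3 RAS libraries above the controls on FPKM as deposited.

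Car5a, the other mitochondrial form and a liver enzyme, was listed at 0 in 5 libraries and at 0.127 FPKM, on only 2 reads, in control 3. In that library the summed level of 9 liver markers was 173 FPKM, against 9.76 to 14.2 FPKM with RAS and 9.70 and 26.6 FPKM in the other controls. Nearly all mitochondrial carbonic anhydrase RNA was therefore Car5b.

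Car4, the membrane-anchored member (NCBI gene 12351, plus strand; chromosome 11, 84957754 to 84966054), showed the largest difference of the 5 tested members. It was at 60.1, 41.5 and 71.2 FPKM in RAS 1 to 3, against 31.4, 35.2 and 30.6 FPKM in control 1 to 3. The controls lay close together, while the RAS libraries were spread and RAS 2 came nearest to them. The means were 57.6 ± 15.0 FPKM with RAS and 32.4 ± 2.48 FPKM in control (SD, n = 3 each), on 631 to 1401 reads per library. The log2 difference was 0.78 ± 0.20 (SE; 95% interval 0.31 to 1.25; unadjusted p = 0.0057, limma adjusted p = 0.314), higher in 3 of 3 RAS libraries. Leaving out 1 library at a time gave 0.61 to 1.00.

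For endothelial genes, markers of the capillary walls that carry Car4, the summed level overlapped between the groups. Over 12 genes it was 603, 474 and 662 FPKM in RAS 1 to 3, against 621, 587 and 542 FPKM in control 1 to 3. Of these 12 genes 6 had higher and 6 lower means with RAS (median log2 difference -0.03, against -0.04 over all tested genes). Without RAS 1, and likewise without control 3, 2 had higher and 10 lower means with RAS (medians -0.11 and -0.12). Egfl7 stood apart as higher with RAS (log2 difference 0.36) and the receptor Tie1 as lower (log2 difference -0.32; unadjusted p = 0.0498, limma adjusted p = 0.486). Pecam1, the endothelial adhesion molecule, was at 75.6 ± 8.71 FPKM with RAS and 78.8 ± 2.92 FPKM in control (SD, n = 3 each). Among the RAS libraries, RAS 2 was lowest and RAS 3 highest both in the summed level and in Car4. Cldn5, the highest of the 12 genes, was at 148, 94.8 and 217 FPKM in RAS 1 to 3. With each gene weighted alike, as the mean of centred log2 values, the markers were at 0.079, -0.18 and 0.014 in RAS 1 to 3. By that measure RAS 1 lay above RAS 3, unlike for Car4. The part of endothelial cells in the Car4 values was not tested.

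Brown fat markers, summed over 8 genes, were at 158, 222 and 990 FPKM in RAS 1 to 3, against 336, 128 and 63.6 FPKM in control 1 to 3, so that RAS 3, the library highest in Car4, was also highest in these. All 6 tested brown fat markers had higher means with RAS (median log2 difference 1.08), and 0 were called by limma. Without RAS 3, 4 of the 6 were higher (median 0.38), and without control 3, 5 were (median 0.46). Their part in the Car4 values was not tested. Summed markers of macrophages (609 to 776 FPKM with RAS, 555 to 827 FPKM in control), fibroblasts and their precursors (505 to 681 FPKM with RAS, 539 to 678 FPKM in control), mesothelium (99.1 to 158 FPKM with RAS, 31.0 to 249 FPKM in control) and nerve (144 to 187 FPKM with RAS, 174 to 238 FPKM in control) overlapped between the groups.

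**Figure D3:**
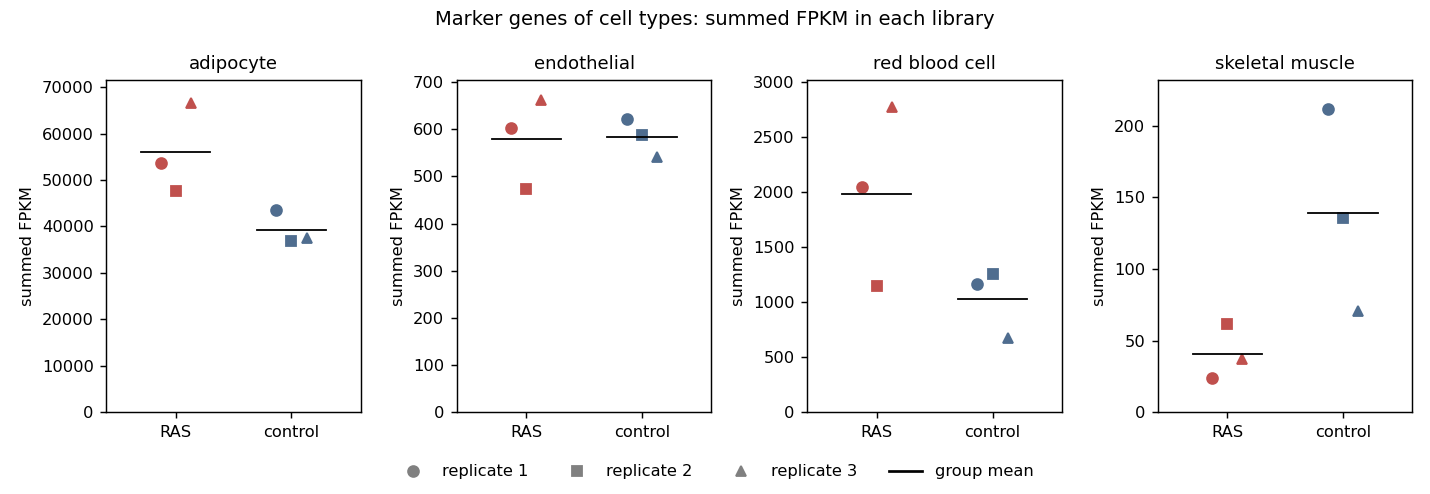
Summed FPKM of marker genes of 4 cell types (vertical axes, linear from 0) in the RAS and control libraries, with points for libraries and lines for group means. The sum of fat cell markers, most of it Fabp4, lies higher with RAS, while the sums of endothelial and red blood cell markers overlap between the groups. The sum of muscle markers, most of it Acta1, is highest in control 1.

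Car14, the transmembrane member (NCBI gene 23831, minus strand), was near the lower limit of the measurement. It was at 0.630, 0.749 and 0.973 FPKM in RAS 1 to 3, against 0.709, 0.801 and 1.02 FPKM in control 1 to 3, on 16 to 28 reads per library. The groups overlapped. The table gives it the same locus as Aph1a, a subunit of gamma-secretase on the other strand that took 1043 to 1338 reads per library, and since no strand-specific step is labelled, reads of both genes may be mixed.

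Car8, the member without enzyme activity (NCBI gene 12319, minus strand; chromosome 4, 8141493 to 8239041), was at 0.239, 0.375 and 0.103 FPKM in RAS 1 to 3, against 0.259, 0.190 and 0.161 FPKM in control 1 to 3. Its highest and lowest values were both in RAS libraries. Car8 and Car14 had a mean FPKM under 1 and were not tested with the others. With no minimum, the log2 difference was 0.04 for Car8 and -0.05 for Car14 (limma adjusted p = 0.918 for both).

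**Figure D4:**
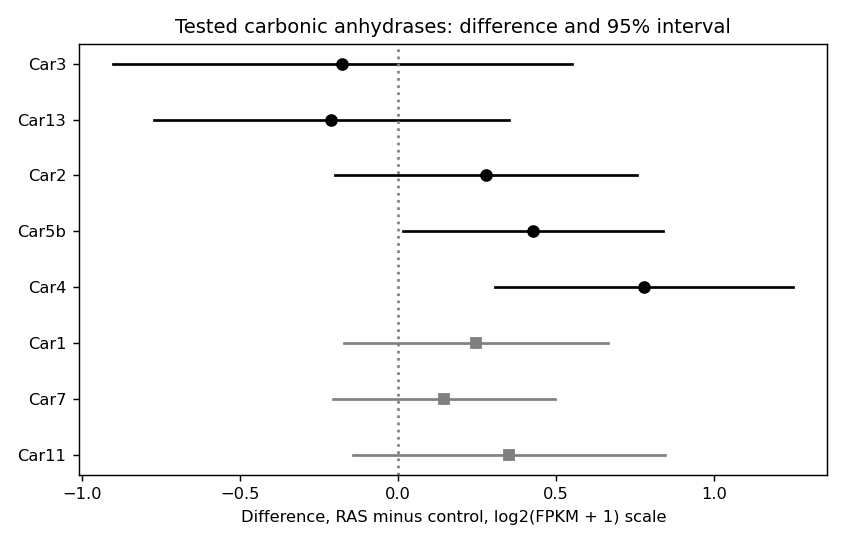
Log2 differences, RAS minus control, on the log2(FPKM + 1) scale (horizontal axis) with 95% intervals from limma for the 5 tested members (black circles) and for Car1, Car7 and Car11 (grey squares). The intervals of Car4 (0.31 to 1.25) and Car5b (0.02 to 0.84) lie above 0 before adjustment for the number of genes tested.

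Set against each other within a library, a comparison that 1 scale factor per library cannot change, Car3 was lower relative to Car5b and to Car4 in the RAS libraries. The ratio of Car3 to Car5b FPKM was 45.2, 48.9 and 44.3 in RAS 1 to 3, against 80.4, 66.9 and 64.4 in control 1 to 3. The ratio of Car3 to Car4 was 94.9, 144 and 78.1 in RAS 1 to 3, against 303, 151 and 177 in control 1 to 3. For both ratios the 3 RAS values lay below all 3 control values. Their log2 differences were -0.61 for Car3 to Car5b and -0.97 for Car3 to Car4, and without control 1 they were -0.51 and -0.68.

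Of the 10 ratios between the 5 tested members, 5 stood apart between the groups. The others were Car5b to Car13 and Car4 to Car13, higher with RAS, and Car13 to Car2, lower with RAS. Of the 5, all but Car13 to Car2 hold Car4 or Car5b, whose FPKM ranges already stood apart, so these largely restate that result. The ratio of Car13 to Car2 rests on 32 to 70 reads of Car2 per library, and the groups overlapped for each of these genes. The share of all gene pairs that stand apart was not computed. For single tested genes it was 17.9% either way. Each of the 5 had an exact permutation p of 0.10, the smallest possible here, and 0.20 after Benjamini-Hochberg adjustment over the 10. The ratio of Car3 to Car13 overlapped, at 732, 617 and 457 in RAS 1 to 3, against 582, 601 and 527 in control 1 to 3. The ratios share members, so they are not independent of each other, and they were added after seeing the data.

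**Figure D5:**
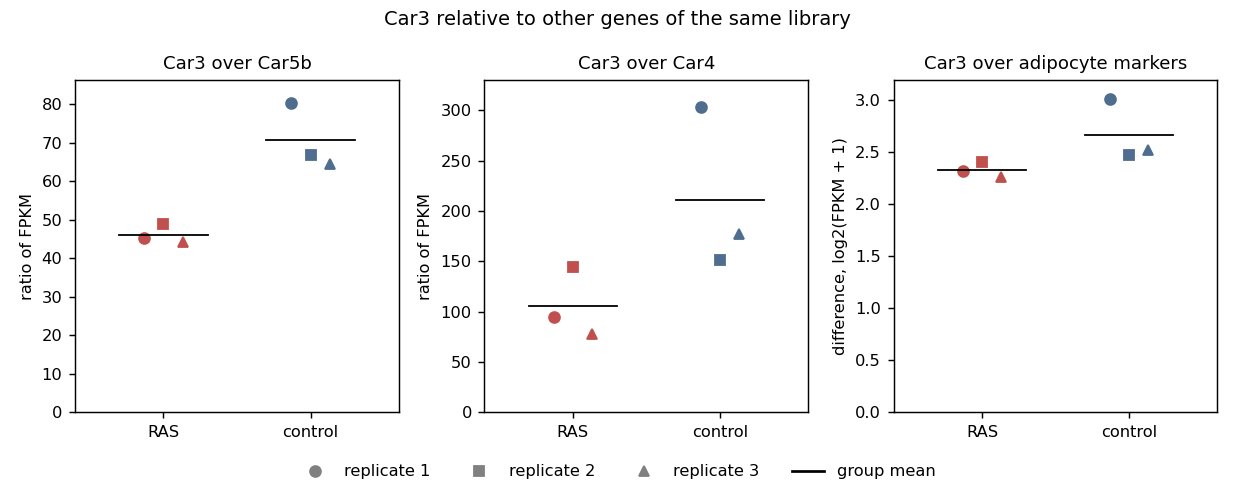
Ratio of Car3 to Car5b and of Car3 to Car4 FPKM, and log2(FPKM + 1) of Car3 minus the mean of 12 adipocyte markers (vertical axes, linear from 0), in the RAS and control libraries, with points for libraries and lines for group means. All 3 RAS points lie below all 3 control points in each panel, at 44.3 to 48.9 against 64.4 to 80.4 for Car3 to Car5b.

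By compartment, the cytosolic genes (Car1, Car2, Car3, Car7 and Car13) summed to 5769 ± 215 FPKM with RAS and 6768 ± 2407 FPKM in control (SD, n = 3 each, also for the next sums), nearly all of it Car3. The mitochondrial genes summed to 125 ± 2.09 FPKM with RAS and 94.0 ± 21.3 FPKM in control, and the membrane-bound genes (Car4, Car9, Car12, Car14 and Car15) to 59.2 ± 15.0 FPKM with RAS and 34.1 ± 2.53 FPKM in control. Both sums stood apart between the groups, with an exact permutation p of 0.10 each. They are nearly all Car5b and Car4, whose ranges already stood apart, so they largely restate that result. Under quantile normalization the exact p was 0.20 for the mitochondrial sum and 0.10 for the membrane-bound sum. The genes without enzyme activity (Car8, Car10 and Car11) summed to 4.15 ± 0.979 FPKM with RAS and 3.05 ± 0.759 FPKM in control, with an exact p of 0.20.

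Of the 9 other carbonic anhydrases in the table, 3 reached a mean FPKM of 1, and 0 were called by limma. Car7, a cytosolic form known from brain and muscle, was at 3.92 ± 0.894 FPKM with RAS and 3.40 ± 0.238 FPKM in control (SD, n = 3 each; log2 difference 0.15). Car11, a secreted relative without enzyme activity, was at 3.90 ± 0.982 FPKM with RAS and 2.84 ± 0.807 FPKM in control (log2 difference 0.35). Car1, a red blood cell enzyme, was at 1.68 ± 0.139 FPKM with RAS and 1.29 ± 0.474 FPKM in control (log2 difference 0.25). The groups overlapped for all 3. Leaving out 1 library at a time gave 0.0033 to 0.25 for Car7, 0.20 to 0.53 for Car11 and 0.12 to 0.40 for Car1. The tumour-associated membrane forms Car9 and Car12, which are known hypoxia targets, averaged 0.361 and 0.130 FPKM over the 6 libraries. Car15 averaged 0.349 FPKM, and Car5a, Car6 and Car10 at most 0.037 FPKM.

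Among genes that move bicarbonate, protons and their counter-ions, 11 of the 25 found in the table were tested. The 25 also count Adcy10, an adenylyl cyclase that is no transporter and was not tested. Of the 11, 4 had higher and 7 lower means with RAS (median log2 difference -0.12, against -0.04 over all tested genes). The median was -0.06 without RAS 3, -0.20 without control 3, -0.22 without RAS 2, -0.23 without control 2 and -0.27 without RAS 1. None was called by limma, and 3 had an unadjusted p under 0.05, all lower with RAS, beside 6.41% of all tested genes in that direction. Their ranges also stood apart, beside 12.5% of all tested genes lower with RAS. Slc4a3, a chloride-bicarbonate exchanger, was at 2.66, 2.64 and 2.03 FPKM in RAS 1 to 3, against 3.51, 3.94 and 3.50 FPKM in control 1 to 3 (log2 difference -0.44; limma adjusted p = 0.349).

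Slc4a2, the widespread chloride-bicarbonate exchanger, was at 15.3 ± 0.485 FPKM with RAS and 18.3 ± 1.29 FPKM in control (SD, n = 3 each; log2 difference -0.25; limma adjusted p = 0.479). Slc26a6, another anion exchanger, was at 1.63 ± 0.292 FPKM with RAS and 2.50 ± 0.588 FPKM in control (log2 difference -0.41; limma adjusted p = 0.468). The sodium-bicarbonate cotransporter Slc4a4 had a higher mean with RAS (log2 difference 0.31; limma adjusted p = 0.581), with overlapping groups.

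Of 8 genes whose enzymes fix bicarbonate, the 7 carboxylase genes were tested. Of these, 3 had higher and 4 lower means with RAS, and 0 were called by limma. The untested gene, Cps1, is no carboxylase and was also counted among the liver markers. Without control 1 all 7 had higher means with RAS. Acacb, the acetyl-CoA carboxylase of the outer mitochondrial membrane, was at 40.1, 52.9 and 49.99 FPKM in RAS 1 to 3, against 35.6, 16.6 and 12.5 FPKM in control 1 to 3 (log2 difference 1.24; limma adjusted p = 0.338). As for Car5b, control 1 was the control nearest to the RAS libraries. Pcx, the pyruvate carboxylase of mitochondria, was at 352 ± 60.9 FPKM with RAS and 286 ± 133 FPKM in control (SD, n = 3 each; log2 difference 0.38), and Acaca, the cytosolic acetyl-CoA carboxylase, differed by 0.60 on the log2 scale. For Mccc1, a subunit of the leucine pathway's carboxylase, the difference was -0.12. The groups overlapped for Pcx, Acaca and Mccc1, and for each of the 3 control 1 was the highest library.

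No member had an SD of log2(FPKM + 1) over the 6 libraries of 0.5 or more, the level set for naming genes of like pattern, though Car4 came near it at 0.498. At an SD of 0.3, a level set after this was seen, Car4, Car13, Car3 and Car5b qualified. Nearest to Car4 among 11062 genes, by the root mean square difference of centred log2 values over the 6 libraries, were Tinagl1 (0.062), Fam189a2 (0.092) and Ccl11 (0.097). Tinagl1, a matrix protein of vessels and smooth muscle, was at 127, 91.0 and 161 FPKM in RAS 1 to 3, against 70.2, 84.7 and 72.5 FPKM in control 1 to 3. Nearest to Car5b were Fam82a2 (0.044), the acyl-CoA thioesterase Acot13 (0.053) and the lysosomal protease Ctsd (0.063). Nearest to Car3 were the phospholipid acyltransferase Lpcat3 (0.064), Fam101b (0.069) and the pyrophosphate transporter Ank (0.069), all highest in control 1. Nearest to Car13 were the mitochondrial ribosomal protein genes Mrpl36 (0.076) and Mrps2 (0.0995) and, between them, Thoc6 (0.089).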

How the data were processed

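Poly(A) RNA of 6 adipose tissue samples was made into TruSeq libraries and sequenced on an Illumina HiSeq instrument, per the labels' protocols. The authors deposited FPKM values per gene, which were used unchanged. The submitters' processing notes name TopHat2 2.0.9 and Cufflinks 2.1.1; build, annotation and filters are not stated in them. Table loci overlapped the GENCODE M21 gene (GRCm38) of the same Ensembl identifier for 99.7% of 18403 genes. Starts equalled GENCODE starts for 30.8% of these genes after adding 1 and for 2.34% without, so 1 was added. Genes that overlap share 1 locus in the table.

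The authors also deposited a count signal per gene, scaled by 1 factor per sample. Of its values above 0, 97.9 to 98.9% were whole multiples, within 0.02, of the commonest value, taken as 1 read, which gives the read numbers. No count model was run on this signal. The treatment protocol names the group fed RAS, and columns carrying that name were read as RAS; the other numbered set was read as control, by elimination. Another 4 columns, with group values, were left out.

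Genes whose mean FPKM reached 1 were tested with limma (lmFit, eBayes with a trend) on log2(FPKM + 1), a scale that understates changes of low genes, with Benjamini-Hochberg adjustment. The script was tested on simulated data. Single measures had exact permutation tests over samples. The members and gene lists were chosen with earlier results of these data known. Named genes are the members, the other carbonic anhydrases and up to 4 genes of smallest p in the transport and carboxylase lists. Also named are up to 3 of the highest genes of each marker list, and genes of like pattern. Pecam1, Egfl7, Tie1, Ckm, Tnnc1, Adcy10, Cps1, Rhag, Epb4.2, LOC100862241 and Aph1a were named after their values were seen. Older symbols were matched through NCBI gene numbers, and 2 red blood cell markers and 1 transporter were not matched. Alternatives were quantile normalization, a pseudocount of 0.1, median-ratio size factors, no minimum, a minimum mean FPKM of 5, leaving out single libraries and a replicate block. Chosen after seeing the data were the scaled counts, leaving Fabp4 out of the adipocyte markers, the sum of both genes on the Car3 locus, and the fit without control 1 and RAS 3. R 4.3.3, limma 3.58.1, Python 3.11.15, pandas 2.3.3, numpy 2.4.6 and matplotlib 3.10.9 were used. Promoter sequences are from RefSeq (GRCm38.p6) and were matched by symbol for 3 of the 7 members.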

Additional observations from a re-analysis of the deposited data

How the results depend on the processing

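Car4, Car5b and Car2 stayed higher with RAS in every alternative run (log2 0.59 to 1.00, 0.32 to 0.60 and 0.13 to 0.51), and no member was called in any. Without control 1 the signs of Car3 (0.10; range over libraries left out -0.32 to 0.10), Car13 (0.0295; -0.38 to 0.03) and the cytosolic sum (0.10; -0.32 to 0.10) turned, and with control 1 and RAS 3 left out together those of Car3 (0.12) and the cytosolic sum (0.12). The other sums and Car3 relative to adipocyte markers kept their sign. Leaving out 1 library gave 0 to 2 called genes over the whole table (H2-T9 without RAS 1, Cd1d2 without RAS 2, Gm19601 and Gm6293 without control 1), and leaving out both gave 3 (those of the last pair and Gm5526); these were named after their values were seen. The ranges of Car5b overlapped between the groups under quantile normalization, and stood apart with median-ratio size factors and on the scaled counts. With the replicate number as a block 0 genes were called and 1663 had an unadjusted p under 0.05, against 1294 without it. Deviations of same-numbered libraries correlated at 0.18, 0.10 and 0.22, the second being under 0.1 before rounding, so the numbers were not taken to pair the samples, although 6 of 6 libraries correlated best with their own number in the other group. The planned count models were not run, since the scaled counts did not pass as whole reads in every library. Car14, Car8 and Car2 rest on 13 to 70 reads per library, which limits what can be detected for them.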
